A study of Mus musculus with 27 samples.

Results

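Livers of wild-type C57/BL6J mice collected 24 h after 70% hepatectomy (PHx24, 7 libraries) were set against livers of sham-operated mice of the same strain (sham, 5 libraries). The comparison used 12 of the 27 libraries of the series and was described across all expressed genes. Samples entered it by their labelled treatment and time alone, so no measured value chose them. By the labels neither group received etomoxir, the inhibitor of carnitine palmitoyltransferase 1 that 2 other groups of the study received. The labels give no time for the sham livers, which the series' design text places at 0 h, and they do not give sex or age, whether a vehicle was injected or whether each library is a separate animal. The p-values therefore measure the spread between libraries within groups, estimated from all 27 libraries of the series in 1 fit.

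After resection of most of its mass, the mouse liver regrows from the hepatocytes of the lobes left behind, which leave quiescence, copy their DNA and divide. Cytokines such as interleukin 6, acting through STAT3, prime the cells, and growth factors such as HGF and the EGF receptor ligands carry them through G1. E2F factors then drive genes of DNA replication, and the MYB-MuvB complex with FOXM1 drives those of mitosis, while the remnant must go on supplying plasma proteins, glucose and detoxification.

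Promoters of 6 genes are shown because their transcripts rose after resection and because they carry the motifs named for those factors. Bases run 5′ to 3′ on the gene's strand, upstream of the first RefSeq start on GRCm38.p6, and capitals mark motif letters on either strand. The E2F core was searched as TTGGCGC or TTCGCGC, the cell cycle homology region (CHR) as TTTGAA or TTCGAA, the CCAAT box as CCAAT and the STAT palindrome as TTCNNNGAA; neighbouring E2F matches on opposite strands can overlap. Mcm5 (chr8:75109339-75109438, plus strand) and Mcm6 (chr1:128359726-128359825, minus strand) encode subunits of the replicative helicase.
Mcm5: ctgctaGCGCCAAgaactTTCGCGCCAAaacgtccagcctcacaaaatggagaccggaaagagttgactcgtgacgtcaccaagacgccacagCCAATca
Mcm6: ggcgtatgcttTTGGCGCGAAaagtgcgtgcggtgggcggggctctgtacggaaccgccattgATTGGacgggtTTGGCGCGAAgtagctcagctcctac
Cdk1 (chr10:69352918-69353098, minus strand), the kinase of mitotic entry, and Ube2c (chr2:164769834-164769913, plus strand), the ubiquitin-conjugating enzyme of the anaphase-promoting complex, hold CHR letters and CCAAT boxes.
Cdk1: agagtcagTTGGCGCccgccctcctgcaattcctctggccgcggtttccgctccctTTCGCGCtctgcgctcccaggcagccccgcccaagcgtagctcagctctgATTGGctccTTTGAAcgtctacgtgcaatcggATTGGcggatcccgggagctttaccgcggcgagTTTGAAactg
Ube2c: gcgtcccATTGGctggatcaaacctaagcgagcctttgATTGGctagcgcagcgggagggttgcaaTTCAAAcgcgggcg
Itih4 (chr14:30886406-30886455, plus strand), an inter-alpha-trypsin inhibitor chain made by hepatocytes, and Socs3 (chr11:117969497-117969536, minus strand), the feedback inhibitor of STAT3 signalling, hold the STAT palindrome.
Itih4: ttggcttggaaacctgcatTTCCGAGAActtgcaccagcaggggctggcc
Socs3: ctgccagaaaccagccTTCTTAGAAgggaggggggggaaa
Of the tested genes, 8722 matched the RefSeq promoter table by symbol, with 300 bases each (250 before and 50 after the start). The E2F core lay in 12.3% of 504 promoters of genes called at least 2-fold higher in PHx24, in 3.03% of 297 promoters of genes called at least 2-fold lower and in 7.31% of all. The CHR lay in 25.4%, 17.8% and 14.1% of the same 3 sets. The CCAAT box was common in each, at 50.8%, 38.4% and 39.6%. The STAT palindrome lay in 6.35%, 8.75% and 6.81%. Among the gene lists, 12 of 41 replication promoters held the E2F core, 33 of 50 spindle promoters held the CHR and 7 of 20 acute-phase promoters held the STAT palindrome. The STAT palindrome also lay in 8 of 26 promoters of interferon-stimulated genes and in 5 of 33 of growth hormone and STAT5 genes. In these lists more genes fell than rose. The CHR lay in 6 of 26 interferon-stimulated promoters and in 9 of 33 growth hormone and STAT5 promoters. These matches describe letters in a window and were not tested as binding sites.

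Of 12376 genes tested, 4326 (35.0%) passed an adjusted p under 0.05, of which 2366 (19.1%) were higher in PHx24 livers and 1960 (15.8%) were lower. Adjusted p-values are from the quasi-likelihood F test of edgeR with Benjamini-Hochberg adjustment over all tested genes, and log2 fold changes run PHx24 minus sham with their SE. Mean FPKM are given ± SD over the 7 PHx24, 5 sham or 7 PHx48 libraries. The called change was at least 2-fold in 697 genes that rose (5.63% of those tested) and 468 that fell (3.78%). The values of the 2 groups did not overlap, with PHx24 above, in 1165 genes (9.41%), and with PHx24 below in 1026 genes (8.29%). Protein-coding genes rose more often than they fell, 2223 against 1714 of 10586. Long noncoding RNAs showed the opposite balance, with 62 higher and 146 lower of 616. So did the genes with the most transcript, since of 636 genes that averaged at least 100 FPKM in either group, 128 were higher and 217 lower. Scaling to TPM, which sets every library to the same total after division by gene length, moved the median log2 fold change of all genes by 0.18, to 0.19 against 0.01, and gave 3797 genes higher and 896 lower (limma), so small changes and the balance of directions depend on the scaling.

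**Figure D1:**
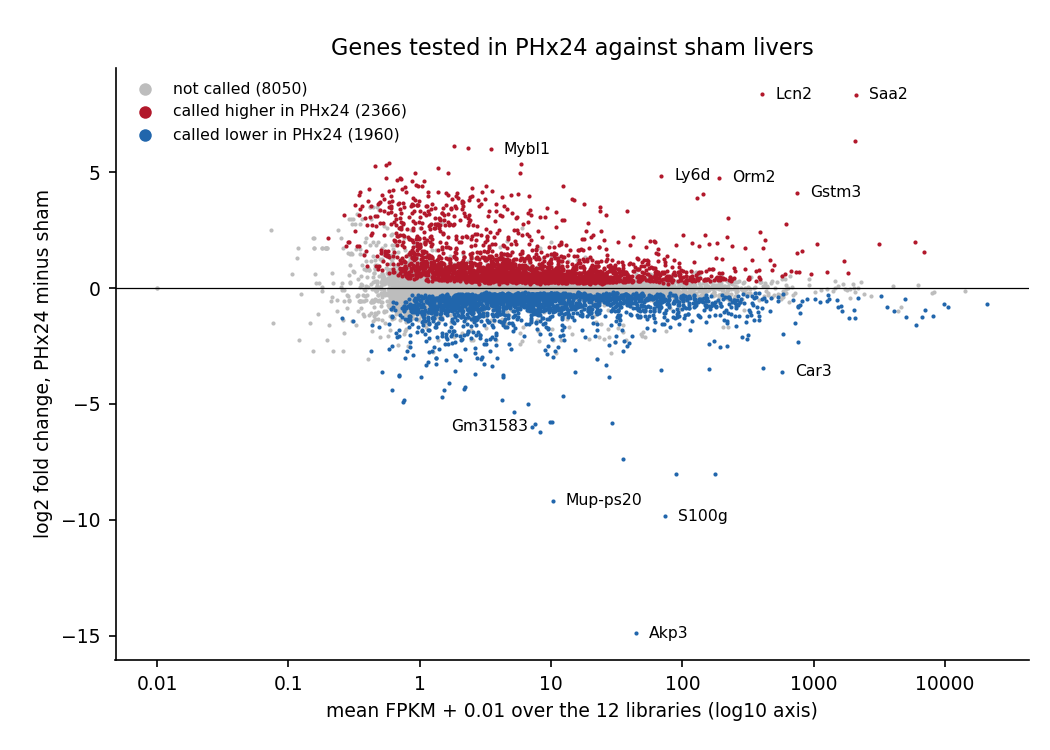
Log2 fold change, PHx24 minus sham, of each of the 12376 tested genes (vertical) against its mean FPKM plus 0.01 over the 12 libraries (horizontal, log10 axis); red and blue points passed the test. Lcn2 and Saa2 stand highest at 8.35 and 8.33, while Akp3 and S100g at the bottom, picked out after their values were seen, rest on 530.7 and 880.3 FPKM in the single library sham 2.

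Total counts were 14903757 to 18446372 per library over the series, and the labelled tissue carried its markers in all 12 libraries: the 14 hepatocyte markers summed to 36853 to 47585 FPKM in PHx24 and to 44272 to 92245 FPKM in sham livers. Some libraries held transcripts of neighbouring tissues. Skeletal muscle markers summed to 1875 FPKM in PHx24 1 and to 4987 and 75.9 FPKM in sham 1 and sham 2, against 0.886 to 3.49 FPKM in the other 9 libraries. Exocrine pancreas markers reached 1431 FPKM in sham 2, against 4.25 to 41.9 FPKM elsewhere, and the same library was high for T and NK cell markers (33.2 FPKM, against 1.09 to 4.25). The main fit kept all 27 libraries, and an alternative fit left out these 3 together with PHx48 3. Many results are given without PHx24 1, sham 1 and sham 2 where that ends a call or moves a value by more than 1.5 times. Counts of fewer than 5 genes in 1 direction often moved by that much. In bulk tissue fewer cells of a type and less RNA per cell cannot be told apart. FPKM are the authors' values, scaled by gene length and by a constant per library that differed from the library total. Near-identical members of the Saa, Orm, Gstm, Mup, Ugt2b, Ces and Cyp2 families can take each other's reads, so their values are uncertain. The exons of Ccne2, Cdc20, Cebpa, Csad, Cyp2f2, Elovl3, Mxd3, Nop56 and Rbl2 overlap those of another gene, and the library kit does not mark strand, so reads of such pairs cannot be told apart either.

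**Figure D2:**
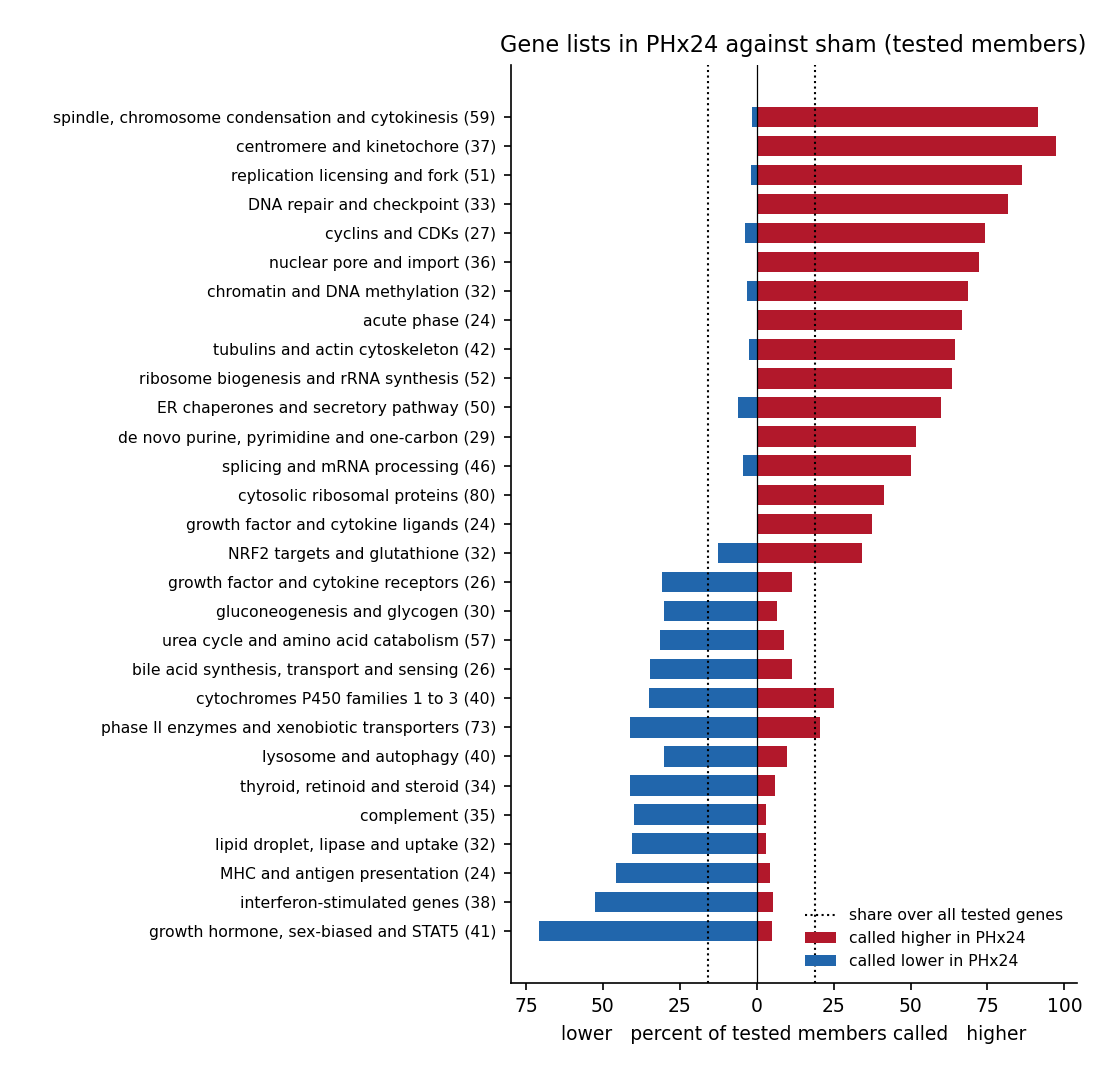
Percent of the tested members of 29 gene lists that were called higher (red, to the right) or lower (blue, to the left) in PHx24 than in sham livers, with the number tested in parentheses; the dotted lines mark the shares over all tested genes, 19.1% and 15.8%. Cell division lists lie far to the right and the growth hormone list far to the left.

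Among the growth signals, 9 of 24 tested ligands rose, none fell (1 without PHx24 2) and the median log2 fold change was 0.36. Of 26 receptors, 3 rose and 8 fell, with 5 falls under TPM, and with 1 rise without sham 2, without sham 5 or without PHx24 1, sham 1 and sham 2. Hgf, the ligand of the receptor MET made by non-parenchymal cells, measured 0.861 to 1.10 FPKM (median 0.946) in PHx24 livers, against 0.518, 0.403, 0.373, 0.623 and 0.562 FPKM in sham livers. Every PHx24 value lay above every sham value, although the gene stayed near 1 FPKM (log2 fold change 0.95 ± 0.16, adjusted p = 3.98e-05). Gdf15, a stress-induced member of the TGF-beta family, measured 8.13 to 27.2 FPKM (median 14.9) in PHx24 livers, against 3.41, 2.72, 3.56, 2.50 and 1.61 FPKM in sham livers. The groups were again fully apart, with a log2 fold change of 2.61 ± 0.43 (adjusted p = 3.73e-05). Inhbb, the activin beta B subunit, rose as well (log2 fold change 2.26 ± 0.40, adjusted p = 9.19e-05). So did Pdgfa, a chain of platelet-derived growth factor (1.43 ± 0.30, adjusted p = 5.66e-04). A pair of signals of the WNT pathway that shapes hepatocyte zones moved with them: Wnt9b had a log2 fold change of 1.44 ± 0.25 (adjusted p = 7.91e-05) and Rspo3, which amplifies WNT signals, one of 0.63 ± 0.16 (adjusted p = 0.00409).

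The receptors that fell included those for priming cytokines and for metabolic hormones. Lifr, the leukaemia inhibitory factor receptor that pairs with gp130, measured 8.28 to 26.9 FPKM (median 19.5) in PHx24 livers, against 54.6, 49.3, 79.6, 41.8 and 42.8 FPKM in sham livers. All 7 PHx24 livers lay below all 5 sham livers (log2 fold change -1.54 ± 0.33, adjusted p = 6.97e-04). Il6ra, the ligand-binding chain of the interleukin 6 receptor, fell with overlap between the groups (log2 fold change -0.78 ± 0.19, adjusted p = 0.00274). Insr, the insulin receptor, ran from 5.27 to 6.85 FPKM (median 5.61) in PHx24 livers, against 8.49, 8.21, 8.64, 7.98 and 8.35 FPKM in sham livers. The change was small but the groups were apart (log2 fold change -0.49 ± 0.09, adjusted p = 2.52e-04). Erbb3, a partner of the EGF receptor, fell (-0.80 ± 0.16, adjusted p = 2.78e-04), and Tnfrsf1a, the main TNF receptor, rose (0.81 ± 0.12, adjusted p = 9.36e-06).

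Of 24 immediate early genes, the first transcripts that growth signals switch on, 7 rose and 2 fell at 24 h. Over all tested genes 19.1% rose and 15.8% fell. The median log2 fold change of the list was 0.51, and under TPM 10 rose and 1 fell. Only 1 fell without PHx24 1, sham 1 and sham 2. The same count of falls came without any 1 of PHx24 3, 4, 5 and 6, sham 1 and sham 2. Atf3, a stress-induced repressor of transcription, measured 1.93 to 7.66 FPKM (median 3.12) in PHx24 livers, against 0.850, 0.737, 0.510, 0.537 and 1.45 FPKM in sham livers. No values were shared between the groups (log2 fold change 2.33 ± 0.55, adjusted p = 0.00172). Jun, the AP-1 subunit, rose with overlapping groups (1.17 ± 0.33, adjusted p = 0.00756). Socs3, whose promoter is shown above, measured 8.38 to 33.0 FPKM (median 15.6) in PHx24 livers, against 2.45, 2.19, 22.03, 4.56 and 3.03 FPKM in sham livers. The sham 3 liver alone lay within the PHx24 range, and the call (log2 fold change 1.43 ± 0.52, adjusted p = 0.0333) was lost in 10 of 22 alternative fits, among them those without PHx24 2 or 7 or without any 1 of sham 1, 2, 4 and 5. Without sham 3 the log2 fold change was 2.57. It was 0.82, and not called, without PHx24 1, sham 1 and sham 2.

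Of 36 hepatocyte transcription factors 3 rose and 7 fell (5 and 4 under TPM), where 19.1% of all tested genes rose and 15.8% fell. Cebpa, which holds hepatocytes in the quiescent, differentiated state, measured 63.3 to 114 FPKM (median 86.7) in PHx24 livers, against 170.5, 205, 264, 227 and 348 FPKM in sham livers. It fell in all 7 livers below the lowest sham value (log2 fold change -1.46 ± 0.18, adjusted p = 1.85e-06). Ppara, the receptor for fatty acids that runs the fasting programme, also fell without overlap (-0.91 ± 0.21, adjusted p = 0.00165).

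**Figure D3:**
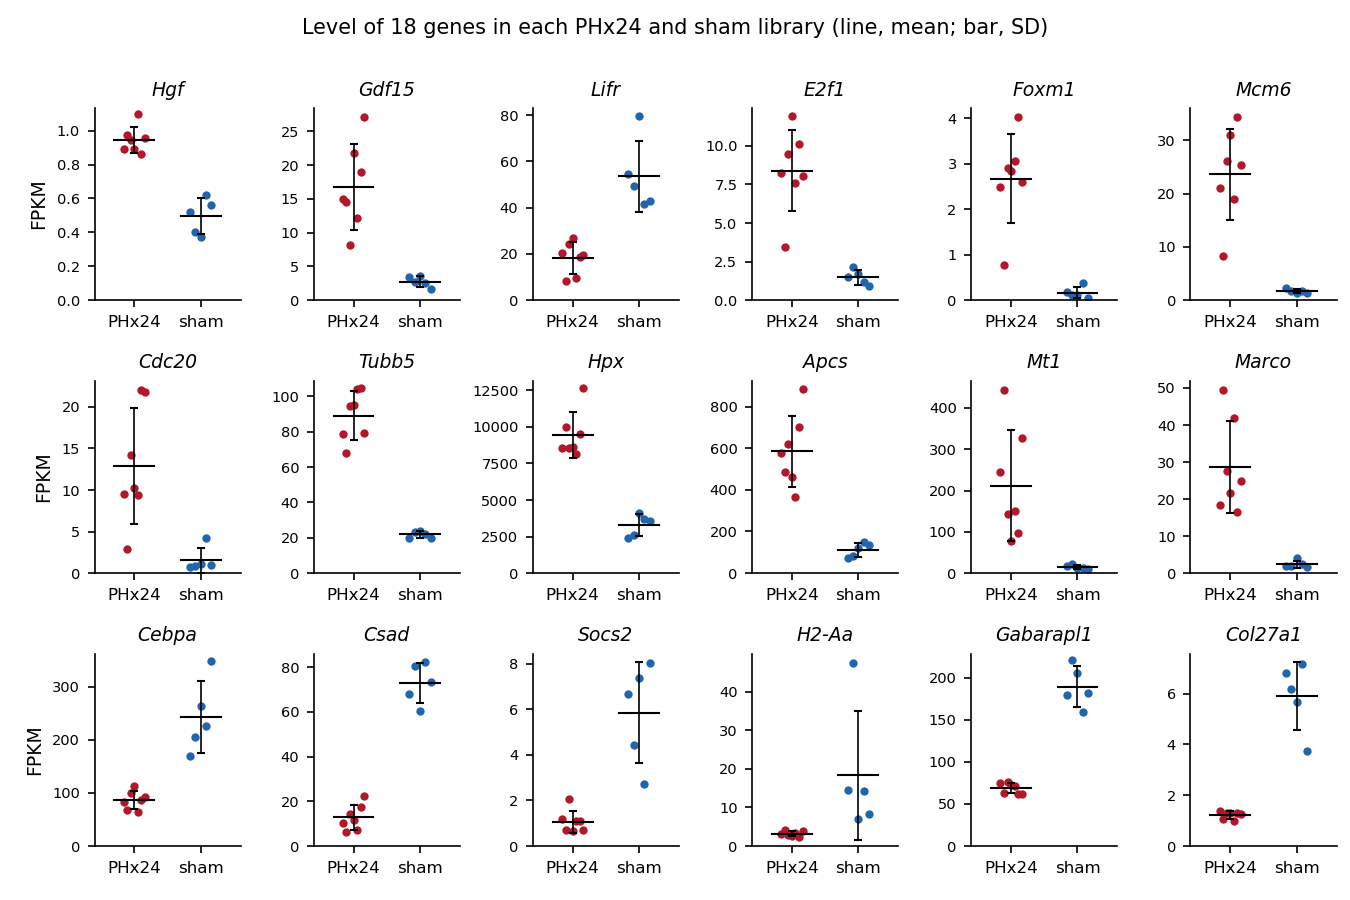
FPKM of 18 genes in each of the 7 PHx24 (red) and 5 sham (blue) libraries; the line is the mean, the bar the SD, and each panel starts at 0. PHx24 and sham points do not overlap in any panel except Cdc20, and sham 2 stands apart in H2-Aa.

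Of 25 cell cycle transcription factors 11 rose and 3 fell (9 and 5 without sham 4, 8 and 5 in DESeq2), and of 27 cyclins and cyclin-dependent kinases 20 rose and 1 fell. E2f1, an activator of S-phase genes, measured 3.43 to 11.9 FPKM (median 8.24) in PHx24 livers, against 1.48, 2.12, 1.72, 1.198 and 0.895 FPKM in sham livers. The lowest PHx24 value came from PHx24 2 and still lay above all sham values (log2 fold change 2.51 ± 0.45, adjusted p = 1.16e-04). Foxm1, the activator of mitotic genes, measured 0.781 to 4.03 FPKM (median 2.84) in PHx24 livers, against 0.185, 0.108, 0.107, 0.375 and 0.0530 FPKM in sham livers. The groups did not overlap (log2 fold change 4.03 ± 0.61, adjusted p = 1.65e-05). Mxd3, the MAX partner found in dividing cells, had a log2 fold change of 4.12 ± 0.56 (adjusted p = 4.25e-06). Its relative Mxd4, found in resting cells, fell (-0.97 ± 0.12, adjusted p = 1.98e-06). Rbl2, the pocket protein p130 that silences E2F targets in quiescence, fell too (-0.76 ± 0.11, adjusted p = 1.39e-05).

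Cyclin E2 and the kinase of mitotic entry were among the rises. Ccne2 had a log2 fold change of 2.70 ± 0.46 (adjusted p = 6.60e-05). Cdk1 measured 1.43 to 11.7 FPKM (median 5.19) in PHx24 livers, against 0.335, 0.377, 0.390, 1.08 and 0.386 FPKM in sham livers. Its groups were apart (log2 fold change 3.60 ± 0.59, adjusted p = 3.66e-05). The 1 member that fell was Ccng2, a cyclin known from growth arrest (-1.19 ± 0.24, adjusted p = 3.97e-04). Of 23 inhibitors and p53 targets 11 rose and 4 fell, with 2 falls without PHx24 1, sham 1 and sham 2 and 1 under TPM. The rises included Cdkn2c, the CDK4 and CDK6 inhibitor p18 (1.62 ± 0.35, adjusted p = 7.09e-04), Mdm2, the ligase that removes p53 (0.49 ± 0.09, adjusted p = 1.69e-04), and Trp53 itself (0.64 ± 0.10, adjusted p = 3.54e-05).

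DNA replication followed the same direction. Of 51 tested genes of origin licensing and the replication fork, 44 rose, 1 fell and the median log2 fold change was 1.84, set against 0.01 over all tested genes. Mcm6 measured 8.36 to 34.4 FPKM (median 25.3) in PHx24 livers, against 2.22, 1.64, 1.40, 1.79 and 1.32 FPKM in sham livers. All PHx24 values were far above the sham values (log2 fold change 3.83 ± 0.44, adjusted p = 5.08e-07). The licensing factors Cdt1 and Cdc6, which load the helicase onto origins, changed by 3.38 ± 0.44 and 5.18 ± 0.78 on the log2 scale (adjusted p = 2.63e-06 and 1.38e-05). Pcna, the sliding clamp, averaged 46.7 ± 18.2 FPKM in PHx24 and 12.03 ± 2.84 FPKM in sham livers, a log2 fold change of 1.98 ± 0.32 (adjusted p = 3.85e-05). Lig1, which seals Okazaki fragments, changed by 3.24 ± 0.40 (adjusted p = 1.52e-06). Mcm10, which helps start unwinding at origins, was the 1 member that fell. It measured 1.57 to 6.10 FPKM (median 4.07) in PHx24 livers, against 9.43, 15.2, 17.8, 7.80 and 16.7 FPKM in sham livers, with no overlap (log2 fold change -1.78 ± 0.46, adjusted p = 0.00367).

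Genes that supply nucleotides and repair DNA rose as well. In deoxynucleotide synthesis 8 of 17 genes rose and 2 fell, and in de novo purine, pyrimidine and one-carbon synthesis 15 of 29 rose and none fell (1 without sham 1). Rrm2, the small subunit of ribonucleotide reductase, measured 5.21 to 34.9 FPKM (median 23.96) in PHx24 livers, against 0.640, 1.54, 1.41, 2.67 and 2.83 FPKM in sham livers. The groups were apart (log2 fold change 3.78 ± 0.55, adjusted p = 9.33e-06). Ctps, the CTP synthase, changed by 2.12 ± 0.22 (adjusted p = 1.26e-07), Cad, which opens pyrimidine synthesis, by 1.26 ± 0.14 (adjusted p = 5.22e-07), and Mthfd2, a mitochondrial folate enzyme, by 1.56 ± 0.20 (adjusted p = 2.16e-06). Of 33 DNA repair and checkpoint genes 27 rose and none fell, with a median of 1.99. The replication checkpoint kinase Chek1 changed by 3.46 ± 0.44 (adjusted p = 2.22e-06) and Brca1, a DNA repair protein, by 3.32 ± 0.40 (adjusted p = 1.19e-06). Among 32 chromatin genes 22 rose and 1 fell. Dnmt1, which copies DNA methylation to new strands, changed by 1.81 ± 0.20 (adjusted p = 2.72e-07), and Hells, a chromatin remodeller that aids it, by 4.10 ± 0.56 (adjusted p = 4.69e-06).

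Genes of mitosis were also up at 24 h. Of 59 genes of the spindle, chromosome condensation and cytokinesis 54 rose and 1 fell (median 3.06), and of 37 centromere and kinetochore genes 36 rose and none fell (median 2.77). Many members lie near 1 FPKM, so a filter at 5 FPKM left fewer to test and called 32 spindle, 14 centromere, 5 DNA repair and 28 replication genes higher. The filter counted all 27 libraries. Genes under 1 FPKM in every sham liver, such as Foxm1 and Ube2c, could thus pass it only through resected livers. The share of rises in the cell division lists is therefore in part set by the filter. Ube2c measured 2.12 to 13.96 FPKM (median 7.13) in PHx24 livers, against 0.477, 0.531, 0.344, 0.860 and 0.323 FPKM in sham livers. The groups were apart (log2 fold change 4.02 ± 0.61, adjusted p = 1.56e-05). Cdc20, the activator of the anaphase-promoting complex, measured 2.85 to 22.03 FPKM (median 10.2) in PHx24 livers, against 0.728, 0.812, 1.14, 4.25 and 0.939 FPKM in sham livers. The lowest PHx24 value lay within the sham range (log2 fold change 3.08 ± 0.60, adjusted p = 2.94e-04). Aurkb, the kinase of the chromosomal passenger complex, changed by 4.13 ± 0.63 (adjusted p = 1.87e-05), and Cenpe, a kinetochore motor, by 3.35 ± 0.52 (adjusted p = 2.12e-05). Pttg1, the securin that holds separase back until anaphase, was the 1 spindle gene that fell. It measured 7.75 to 11.8 FPKM (median 10.4) in PHx24 livers, against 17.8, 16.2, 15.8, 18.8 and 16.6 FPKM in sham livers, with no overlap (log2 fold change -0.77 ± 0.14, adjusted p = 1.45e-04).

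The PHx24 livers differed among themselves in cell cycle transcripts. The mean log2(FPKM + 1) over the 51 replication genes was 1.92 in PHx24 2 and 2.33 to 2.92 in the other 6 PHx24 livers, against 1.41 to 1.52 in the sham livers. Over the 59 spindle genes it was 1.16 in PHx24 2 and 1.89 to 2.56 in the others, against 0.77 to 0.98 in the sham livers. PHx24 2 was thus the lowest PHx24 liver on both lists and still lay above every sham liver. Its 13 neutrophil markers, of which S100a8 and S100a9 passed the filter on low values, summed to 89.7 FPKM, against 5.01 to 14.1 FPKM in the other PHx24 livers. Their part in the lower cell cycle levels was not tested.

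**Figure D4:**
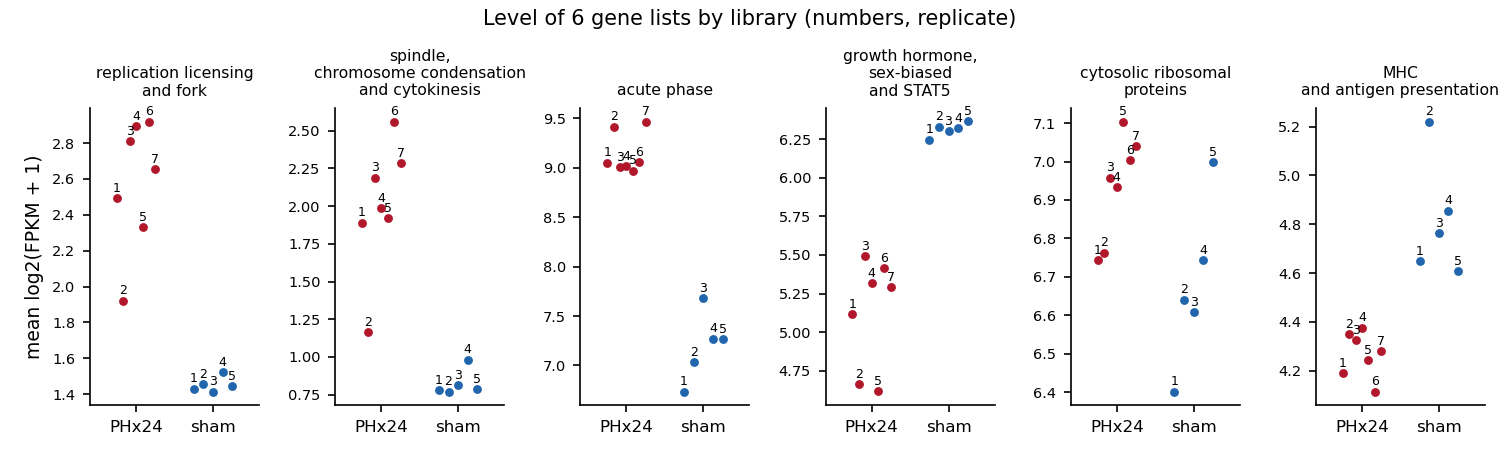
Mean log2(FPKM + 1) of the tested members of 6 gene lists in each PHx24 (red) and sham (blue) library, labelled by replicate number. PHx24 2 is the lowest PHx24 library for replication (1.92) and spindle genes (1.16) and sham 2 the highest library for MHC genes.

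Nuclear transport and cytoskeleton genes rose in most members. Of 36 nuclear pore and import genes 26 rose and none fell (median 0.66). Ran, the GTPase that drives nuclear transport, measured 76.8 to 110.4 FPKM (median 95.4) in PHx24 livers, against 44.3, 47.7, 41.4, 41.4 and 46.4 FPKM in sham livers. The groups were apart at a log2 fold change of 1.12 ± 0.10 (adjusted p = 4.88e-09). Its import receptor Kpnb1 changed by 1.15 ± 0.13 (adjusted p = 4.41e-07). Of 42 tubulin and actin cytoskeleton genes 27 rose and 1 fell (median 0.84). Tubb5, a beta-tubulin of dividing cells, measured 68.0 to 104.5 FPKM (median 94.3) in PHx24 livers, against 19.9, 23.4, 23.8, 22.2 and 19.8 FPKM in sham livers. No other gene of that list had a lower adjusted p (log2 fold change 2.05 ± 0.11, adjusted p = 2.47e-12). Krt18 and its partner Krt8, the keratins of the hepatocyte, averaged 626 ± 193 FPKM in PHx24 and 151 ± 17.5 FPKM in sham livers, and 581 ± 188 FPKM in PHx24 and 177 ± 44.5 FPKM in sham livers (log2 fold change 2.07 ± 0.27 and 1.73 ± 0.33, adjusted p = 2.78e-06 and 2.21e-04). Actg1, cytoplasmic gamma-actin, changed by 2.30 ± 0.32 (adjusted p = 5.09e-06).

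The machinery of protein synthesis rose in many members by small amounts. Of 52 genes of ribosome biogenesis 33 rose and none fell (median 0.42), of 80 cytosolic ribosomal proteins 33 rose (median 0.30), and of 44 translation factors and tRNA synthetases 23 rose and 5 fell (median 0.32). For ribosomal proteins the count was 18 higher and 2 lower without sham 1, 20 higher without sham 3, 12 higher and 2 lower without PHx24 1, sham 1 and sham 2, and 68 higher under TPM. For translation factors TPM gave 30 higher and 1 lower, and 3 were lower with no filter. Nop56, a core protein of the box C/D snoRNPs, averaged 15.3 ± 3.26 FPKM in PHx24 and 6.99 ± 1.61 FPKM in sham livers (log2 fold change 1.15 ± 0.15, adjusted p = 2.30e-06). Vars, the valyl-tRNA synthetase, ran from 15.4 to 19.5 FPKM (median 15.997) in PHx24 livers, against 7.48, 7.74, 9.20, 7.78 and 7.95 FPKM in sham livers. The groups were well apart (log2 fold change 1.11 ± 0.10, adjusted p = 1.42e-08). Eif4ebp2, an inhibitor of cap-dependent translation, measured 29.5 to 34.3 FPKM (median 33.1) in PHx24 livers, against 54.3, 54.4, 53.1, 45.6 and 50.4 FPKM in sham livers. These too were fully apart (log2 fold change -0.65 ± 0.07, adjusted p = 2.70e-07). Of 46 splicing genes 23 rose and 2 fell (35 and 0 under TPM), with 1 fall without PHx24 3, without PHx24 5 or without PHx24 1, sham 1 and sham 2. Of 50 endoplasmic reticulum genes 30 rose and 3 fell, with 17 and 2 without those 3 libraries and 1 fall under TPM, and of 31 cytosolic chaperones 16 rose, with 5 without them and 27 under TPM. Sdf2l1, an endoplasmic reticulum protein of the unfolded protein response, changed by 1.25 ± 0.25 (adjusted p = 3.16e-04) and Hsp90aa1, the inducible cytosolic HSP90, by 1.197 ± 0.19 (adjusted p = 3.65e-05). Of 40 proteasome subunits 14 rose and none fell, with 9 rises without the 3 libraries, 31 under TPM and 2 falls without sham 1.

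Among secreted proteins most acute-phase genes rose. Of 24 acute-phase genes 16 rose and none fell (median 1.36). Hpx, hemopexin, which clears haem, measured 8126 to 12638 FPKM (median 8611) in PHx24 livers, against 2375, 2625, 4121, 3673 and 3558 FPKM in sham livers. All PHx24 values were above the highest sham value (log2 fold change 1.55 ± 0.24, adjusted p = 2.35e-05). Orm2, an alpha-1-acid glycoprotein, measured 217 to 563 FPKM (median 277) in PHx24 livers, against 5.03, 12.55, 21.1, 12.2 and 9.64 FPKM in sham livers. That gene had a log2 fold change of 4.75 ± 0.47 (adjusted p = 7.40e-08) and no overlap. Apcs, serum amyloid P, averaged 585 ± 172 FPKM in PHx24 and 111 ± 33.5 FPKM in sham livers (log2 fold change 2.43 ± 0.28, adjusted p = 4.53e-07). Itih4, whose promoter is shown above, averaged 1025 ± 138 FPKM in PHx24 and 366 ± 76.9 FPKM in sham livers (log2 fold change 1.503 ± 0.21, adjusted p = 4.75e-06). Serpina3n, a protease inhibitor, changed by 2.77 ± 0.27 (adjusted p = 4.06e-08).

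Complement, coagulation and lipoprotein genes went down more often than up: 14 lower and 1 higher of 35 complement genes, 10 lower and 5 higher of 32 coagulation genes, and 10 lower and 2 higher of 25 apolipoprotein and lipoprotein assembly genes. Their medians of -0.33, -0.24 and -0.25 became -0.13, -0.03 and -0.04 under TPM, which moves all genes by 0.18, and the counts became 8 lower and 4 higher of the complement genes and 4 lower and 5 higher of the coagulation genes. The 5 coagulation rises were 2 in limma with a pseudocount of 1 or without PHx24 1, sham 1 and sham 2, and 3 without sham 1 alone. C3, the central complement protein and an acute-phase product, was the 1 complement gene that rose (2 without sham 5; log2 fold change 1.17 ± 0.17, adjusted p = 1.23e-05). C6, part of the membrane attack complex, measured 28.5 to 62.3 FPKM (median 50.5) in PHx24 livers, against 98.2, 114, 109, 105 and 101 FPKM in sham livers. The groups were apart (log2 fold change -1.09 ± 0.25, adjusted p = 0.00132). Klkb1, plasma prekallikrein, averaged 20.9 ± 2.46 FPKM in PHx24 and 47.8 ± 6.46 FPKM in sham livers (log2 fold change -1.17 ± 0.22, adjusted p = 1.44e-04), and Hgfac, the protease that activates HGF, averaged 36.0 ± 4.60 FPKM in PHx24 and 73.3 ± 10.3 FPKM in sham livers (-1.01 ± 0.14, adjusted p = 4.44e-06). Thbd, thrombomodulin, rose (2.20 ± 0.40, adjusted p = 1.13e-04). Apoa1, the main protein of HDL, averaged 5000.1 ± 625 FPKM in PHx24 and 9928 ± 2210.3 FPKM in sham livers (log2 fold change -0.96 ± 0.16, adjusted p = 3.60e-05). Apoa4, an apolipoprotein that rises with hepatic fat, went the other way. It measured 144 to 763 FPKM (median 267) in PHx24 livers, against 18.5, 126, 27.6, 22.9 and 25.3 FPKM in sham livers, with no overlap (log2 fold change 3.01 ± 0.49, adjusted p = 3.69e-05).

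Metal and redox genes moved in both directions, set beside 19.1% higher and 15.8% lower over all tested genes. Of 29 genes of metallothioneins, iron and zinc 9 rose and 6 fell. Hamp2, hepcidin 2, was among the 15 largest falls (log2 fold change -3.30 ± 0.76, adjusted p = 0.00135). Mt1, the metal-binding metallothionein 1, measured 77.4 to 444 FPKM (median 150.2) in PHx24 livers, against 16.2, 21.8, 12.46, 12.01 and 9.67 FPKM in sham livers. The groups were apart (log2 fold change 3.88 ± 0.60, adjusted p = 1.98e-05). Tfrc, the transferrin receptor for iron uptake, changed by 1.55 ± 0.26 (adjusted p = 6.39e-05), Alas1, the first enzyme of hepatic haem synthesis, by 1.70 ± 0.24 (adjusted p = 6.45e-06) and Hmox1, which degrades haem, by 1.69 ± 0.36 (adjusted p = 7.82e-04). Of 32 NRF2 target and glutathione genes 11 rose and 4 fell. Gstm3, a mu-class glutathione transferase, measured 564 to 2053 FPKM (median 872) in PHx24 livers, against 91.3, 108, 58.4, 59.2 and 38.8 FPKM in sham livers. It was among the 10 largest gains in mean FPKM (log2 fold change 4.10 ± 0.51, adjusted p = 1.59e-06). Srxn1, which repairs oxidised peroxiredoxins, changed by 1.86 ± 0.48 (adjusted p = 0.00371), Nqo1, a quinone reductase, by 1.38 ± 0.38 (adjusted p = 0.00560) and Gsr, glutathione reductase, by 0.82 ± 0.20 (adjusted p = 0.00227).

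Detoxification genes moved in both directions, as did all tested genes, of which 19.1% rose and 15.8% fell. Of 40 cytochromes P450 of families 1 to 3, 10 rose and 14 fell (6 rose without sham 3, and without PHx24 1, sham 1 and sham 2), and of 73 phase II enzymes and xenobiotic transporters 15 rose and 30 fell. Por, the reductase that feeds electrons to all microsomal P450s, measured 85.0 to 153 FPKM (median 138) in PHx24 livers, against 33.9, 37.2, 41.9, 28.3 and 39.9 FPKM in sham livers. It rose without overlap (log2 fold change 1.84 ± 0.20, adjusted p = 2.28e-07). Cyp2b10, the classical target of the receptor CAR, had a log2 fold change of 3.25 ± 0.84 (adjusted p = 0.00365), and of 5.05 without sham 2. Cyp2f2, a periportal P450, averaged 228 ± 49.3 FPKM in PHx24 and 606 ± 137 FPKM in sham livers (log2 fold change -1.38 ± 0.20, adjusted p = 8.53e-06), and the pericentral Cyp2e1 averaged 1159 ± 287 FPKM in PHx24 and 2339.6 ± 311 FPKM in sham livers (-0.99 ± 0.27, adjusted p = 0.00530). Nnmt, which methylates nicotinamide, changed by 1.90 ± 0.22 (adjusted p = 8.47e-07). Ces3b, a carboxylesterase, measured 38.4 to 103.995 FPKM (median 62.1) in PHx24 livers, against 256, 335, 541, 379 and 364 FPKM in sham livers. The ranges did not meet (log2 fold change -2.52 ± 0.34, adjusted p = 3.54e-06). Slco1a1, an organic anion uptake carrier, fell as well (-1.56 ± 0.32, adjusted p = 4.68e-04).

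Genes of amino acid and carbohydrate metabolism moved in both directions, where 19.1% of all tested genes rose and 15.8% fell. Of 57 genes of the urea cycle and amino acid catabolism 18 fell and 5 rose. The rises depended on the setting, with 2 without PHx24 1, sham 1 and sham 2, 3 without sham 1 and 11 with only the 2 groups in the fit, and TPM turned the balance to 16 rises and 12 falls. Csad, the decarboxylase of taurine synthesis, measured 6.30 to 22.3 FPKM (median 11.8) in PHx24 livers, against 68.1, 80.7, 60.2, 82.2 and 73.4 FPKM in sham livers. Every PHx24 liver was below 25 FPKM and every sham liver above 60 FPKM (log2 fold change -2.49 ± 0.35, adjusted p = 5.71e-06). Tdo2, which opens tryptophan degradation, averaged 120.4 ± 16.6 FPKM in PHx24 and 353 ± 86.1 FPKM in sham livers (log2 fold change -1.53 ± 0.20, adjusted p = 3.42e-06). Otc, a urea cycle enzyme of the mitochondrion, changed by -1.24 ± 0.19 (adjusted p = 1.58e-05). Oat, ornithine aminotransferase, rose instead. It measured 969.7 to 1299.7 FPKM (median 1095) in PHx24 livers, against 399, 299.9, 345, 408 and 445 FPKM in sham livers, again with no overlap (1.58 ± 0.25, adjusted p = 2.55e-05). In gluconeogenesis and glycogen metabolism 9 of 30 genes fell and 2 rose (5 and 3 under TPM), with 1 rise without PHx24 1, sham 1 and sham 2 or without any 1 of sham 2, 3 and 5. Gys2, liver glycogen synthase, changed by -1.01 ± 0.21 (adjusted p = 4.66e-04). Of 30 genes of glycolysis and the pentose phosphate pathway 7 rose and 5 fell (8 and 3 under TPM). The glycolytic enzyme Pklr, liver pyruvate kinase, changed by -1.81 ± 0.26 (adjusted p = 6.94e-06). Ldha, lactate dehydrogenase A, averaged 434 ± 58.8 FPKM in PHx24 and 263 ± 30.6 FPKM in sham livers (log2 fold change 0.74 ± 0.13, adjusted p = 8.89e-05), and the lactate carrier Slc16a1 rose with it (0.84 ± 0.15, adjusted p = 1.30e-04).

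Lipid and bile acid genes fell in part, where 15.8% of all tested genes fell and 19.1% rose. Of 32 genes of lipid droplets, lipases and fatty acid uptake 13 fell and 1 rose, of 30 genes of fatty acid and triglyceride synthesis 13 fell and 2 rose, of 35 cholesterol genes 8 fell and 1 rose, and of 26 bile acid genes 9 fell and 3 rose. Without any 1 of PHx24 2, PHx24 5 and sham 1 no lipid droplet gene, no cholesterol gene and 1 gene of fatty acid synthesis rose, and other single libraries also moved these small counts. No lipid droplet gene and no cholesterol gene rose without PHx24 1, sham 1 and sham 2. Under TPM 6 lipid droplet genes and 4 cholesterol genes fell, and with only the 2 groups in the fit 13 cholesterol genes fell. Lpin1, the phosphatidate phosphatase of triglyceride synthesis, measured 0.775 to 4.54 FPKM (median 1.29) in PHx24 livers, against 7.47, 6.14, 5.59, 2.34 and 12.4 FPKM in sham livers. PHx24 1 alone lay above the lowest sham liver (log2 fold change -2.01 ± 0.46, adjusted p = 0.00142). Slc27a2, a very long chain acyl-CoA synthetase, averaged 141 ± 14.3 FPKM in PHx24 and 296 ± 84.6 FPKM in sham livers (log2 fold change -1.04 ± 0.16, adjusted p = 1.69e-05), and hepatic lipase Lipc averaged 48.01 ± 5.57 FPKM in PHx24 and 91.0 ± 12.6 FPKM in sham livers (-0.90 ± 0.13, adjusted p = 7.55e-06). The enzymes that conjugate bile acids fell together. Slc27a5, which activates them with CoA, ran from 133 to 182 FPKM (median 162) in PHx24 livers, against 286, 349, 348, 444 and 449.7 FPKM in sham livers (log2 fold change -1.202 ± 0.15, adjusted p = 1.63e-06). Baat, which joins them to taurine or glycine, changed by -0.88 ± 0.14 (adjusted p = 3.02e-05). Both were apart from sham, as was Slc51b, part of the basolateral bile acid exporter, in the other direction (3.55 ± 1.04, adjusted p = 0.00914).

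Among lists with at least 15 tested members, genes under growth hormone and STAT5 control had the highest share of falls. Of 41 tested members 29 fell and 2 rose, with a median of -1.24 and 1 rise without any 1 of PHx24 5, sham 1, 2, 3 and 5. The hormone's receptor Ghr changed by -0.76 ± 0.24 (adjusted p = 0.0131) and its effector Stat5b by -0.84 ± 0.11 (adjusted p = 2.16e-06). Socs2, a STAT5-induced feedback inhibitor of the receptor, measured 0.655 to 2.04 FPKM (median 1.11) in PHx24 livers, against 6.68, 4.43, 7.37, 2.72 and 8.04 FPKM in sham livers. The groups did not overlap (log2 fold change -2.43 ± 0.44, adjusted p = 1.10e-04). Male-biased genes of the mouse liver were among the falls. Elovl3, a fatty acid elongase, averaged 136 ± 44.4 FPKM in PHx24 and 563 ± 100.02 FPKM in sham livers (log2 fold change -2.04 ± 0.39, adjusted p = 2.42e-04), and Mup20, the pheromone darcin, averaged 1271 ± 287 FPKM in PHx24 and 3141 ± 807 FPKM in sham livers (-1.28 ± 0.24, adjusted p = 1.62e-04). The female-biased A1bg was 1 of the 2 that rose. It measured 0.302 to 3.15 FPKM (median 1.87) in PHx24 livers, against 0.148, 0.230, 0, 0 and 0 FPKM in sham livers (log2 fold change 4.38 ± 0.78, adjusted p = 1.09e-04). Without PHx24 1, sham 1 and sham 2 the sham value of that gene is 0 in all 3 libraries left. Igfbp3, the carrier of IGF1, fell (-1.51 ± 0.24, adjusted p = 2.32e-05). In the list of thyroid, retinoid and steroid genes 14 of 34 fell and 2 rose (9 and 4 under TPM), with 1 rise without PHx24 1, sham 1 and sham 2 or without any 1 of PHx24 2, 4, 5, 6 and 7, sham 2, 3 and 4. Hsd11b1, which regenerates active glucocorticoid, averaged 53.7 ± 13.8 FPKM in PHx24 and 135 ± 49.4 FPKM in sham livers (log2 fold change -1.30 ± 0.22, adjusted p = 6.42e-05).

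Many antigen presentation and interferon-stimulated genes fell. Of 24 MHC and antigen presentation genes 11 fell and 1 rose, and of 38 interferon-stimulated genes 20 fell and 2 rose. The interferon count was 13 lower without sham 3, 11 lower under TPM, 1 higher without PHx24 2 and 0 higher without PHx24 1, sham 1 and sham 2. H2-Aa, an MHC class II chain, measured 2.32 to 4.14 FPKM (median 3.20) in PHx24 livers, against 14.6, 47.6, 6.89, 14.2 and 8.26 FPKM in sham livers. The sham 2 liver was far above the others, and even so all sham livers exceeded all PHx24 livers (log2 fold change -2.51 ± 0.37, adjusted p = 1.33e-05, and -1.59 without PHx24 1, sham 1 and sham 2). B2m, the light chain of MHC class I, averaged 1147 ± 116 FPKM in PHx24 and 2047 ± 459.7 FPKM in sham livers (log2 fold change -0.81 ± 0.14, adjusted p = 8.50e-05). T and NK cell markers summed to 1.09 to 2.50 FPKM in PHx24 and 3.03 to 33.2 FPKM in sham livers, and B cell markers to 2.47 to 10.2 FPKM in PHx24 and 5.08 to 43.7 FPKM in sham livers. Of these 23 markers 2 passed the filter on low values, while the defining Cd3e and Cd79a did not, and their part in the MHC result was not tested. Ifit3, an interferon-induced antiviral protein, measured 1.29 to 4.58 FPKM (median 2.62) in PHx24 livers, against 5.79, 5.93, 11.02, 10.1 and 9.70 FPKM in sham livers. The groups were apart (log2 fold change -1.58 ± 0.36, adjusted p = 0.00114), and its neighbour Ifit1 changed by -1.46 ± 0.35 (adjusted p = 0.00217). Cxcl9, a chemokine induced by interferon gamma, fell too (-1.56 ± 0.29, adjusted p = 1.46e-04).

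Chemokines and markers of myeloid cells moved in both directions, where 19.1% of all tested genes rose and 15.8% fell. Of 20 chemokine and adhesion genes 7 rose and 4 fell, and of 5 tested monocyte markers 2 rose and 1 fell (1 and 0 without PHx24 1, sham 1 and sham 2, and no fall without sham 2). Ccl5, a chemokine that draws T cells, had a log2 fold change of -2.53 ± 0.46 (adjusted p = 1.33e-04). That change was -1.45 without sham 2 and -1.44 without PHx24 1, sham 1 and sham 2. Ccl2, the chemokine that draws monocytes, measured 1.27 to 12.9 FPKM (median 2.08) in PHx24 livers, against 0.156, 0.121, 0.242, 0.542 and 0.268 FPKM in sham livers. All PHx24 values were higher (log2 fold change 3.96 ± 0.75, adjusted p = 2.01e-04), and Ccl7, a related ligand, changed by 3.59 ± 0.77 (adjusted p = 7.49e-04). Marco, a scavenger receptor of macrophages, measured 16.4 to 49.5 FPKM (median 24.9) in PHx24 livers, against 1.995, 1.86, 4.03, 2.32 and 1.66 FPKM in sham livers. It was the 1 of 14 tested Kupffer cell markers that was called, where 3 rose and 3 fell with only the 2 groups in the fit and 1 fell without PHx24 2, sham 1 or sham 5 (log2 fold change 3.60 ± 0.51, adjusted p = 6.36e-06), and the sum over that marker list was 157.6 to 281.8 FPKM in PHx24 and 174.2 to 264.7 FPKM in sham livers. S100a8, a calgranulin of neutrophils, measured 1.42 to 27.2 FPKM (median 2.59) in PHx24 livers, against 0.341, 0.398, 1.29, 0.445 and 0.549 FPKM in sham livers. The highest value is PHx24 2, and the log2 fold change of 3.32 ± 0.76 (adjusted p = 0.00130) was 2.07 without it. Ly6d, a surface protein of the LY6 family, measured 33.1 to 236 FPKM (median 93.8) in PHx24 livers, against 13.98, 2.69, 0.646, 0.622 and 1.33 FPKM in sham livers. It was among the 15 largest rises (4.84 ± 0.84, adjusted p = 7.87e-05).

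Of 40 genes of lysosome and autophagy 12 fell and 4 rose, where 15.8% of all tested genes fell and 19.1% rose. TPM turned the balance to 5 falls and 7 rises, and 2 rose without any 1 of PHx24 5, sham 3 and sham 5. Gabarapl1, an ATG8 family protein of the autophagosome, measured 62.1 to 76.0 FPKM (median 71.1) in PHx24 livers, against 180.04, 221, 206, 159 and 182 FPKM in sham livers. The separation was complete (log2 fold change -1.44 ± 0.14, adjusted p = 3.98e-08). Wipi1, which marks the forming membrane, changed by -1.40 ± 0.16 (adjusted p = 4.23e-07) and Ulk1, the kinase that starts the process, by -0.95 ± 0.13 (adjusted p = 3.79e-06). In the extracellular matrix list 13 of 45 rose and 7 fell, and that share of falls was near the 15.8% over all tested genes. There were 8 rises without sham 3 or without sham 4, and 3 falls under TPM. Without PHx24 1, sham 1 and sham 2 there were 18 rises and 3 falls. Col27a1, a fibrillar collagen, measured 0.967 to 1.37 FPKM (median 1.29) in PHx24 livers, against 6.82, 6.17, 5.66, 7.16 and 3.73 FPKM in sham livers. No gene of the list had a lower adjusted p (log2 fold change -2.26 ± 0.18, adjusted p = 1.45e-09). Mmp14, a membrane-bound protease that cuts collagen, rose (1.16 ± 0.22, adjusted p = 2.21e-04), as did Itga5, the fibronectin receptor chain (0.87 ± 0.16, adjusted p = 1.27e-04).

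Mitochondrial and zonal genes split between directions, set beside 19.1% higher and 15.8% lower over all tested genes. Of 46 genes of fatty acid oxidation and ketogenesis 15 fell and 5 rose, and of 25 genes of the TCA cycle 8 fell and 3 rose, with 9 and 10 and with 4 and 7 under TPM. The TCA cycle count was 8 and 5 without sham 1. Of 66 genes of the mitochondrial ribosome and import 17 rose and 4 fell, with 9 and 6 without sham 3, 5 and 2 without PHx24 1, sham 1 and sham 2, and 40 and 0 under TPM. Without PHx24 1 or PHx24 2 only 1 of that list fell, and without PHx24 7 only 2. Of 15 mitochondrially encoded transcripts none rose and 4 fell, with 1 and 2 under TPM. Pericentral hepatocyte genes rose in 9 of 30 and fell in 5, with 5 and 4 without those 3 libraries. Periportal genes rose in 3 of 26 and fell in 7. Sinusoidal endothelial markers fell in 4 of 14 and rose in none (2 fell under TPM, or without those libraries), with a summed level of 57.8 to 79.9 FPKM in PHx24 and 70.1 to 106 FPKM in sham livers. Stellate cell and fibroblast markers rose in 1 of 14 and fell in 2 (1 fell without PHx24 1, sham 1 and sham 2, or under TPM), with a summed level of 71.1 to 171 FPKM in PHx24 and 94.0 to 254 FPKM in sham livers.

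Among noncoding transcripts Gm31583, a long noncoding RNA of unassigned role, measured 0.0975 to 0.482 FPKM (median 0.216) in PHx24 livers, against 11.2, 18.4, 21.5, 15.4 and 17.8 FPKM in sham livers. It was 1 of the 15 largest falls (log2 fold change -5.99 ± 0.31, adjusted p = 1.08e-12). Mup-ps20, a pseudogene of the major urinary protein cluster, measured 0 to 0.156 FPKM (median 0) in PHx24 livers, against 11.999, 11.5, 19.4, 31.7 and 48.2 FPKM in sham livers. The fitted log2 fold change of -9.18 ± 0.71 (adjusted p = 4.35e-09) rests on a PHx24 median of 0. AI506816, another long noncoding RNA, went up without overlap. Its mean was 8.40 ± 0.9196 FPKM in PHx24 and 1.62 ± 0.233 FPKM in sham livers (log2 fold change 2.39 ± 0.17, adjusted p = 2.09e-10).

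Set against livers at 48 h after the same resection (PHx48, 7 libraries), PHx24 differed in 1435 genes (11.6%), with 669 higher (5.41%) and 766 lower (6.19%). Of 51 replication genes none was called higher and 1 lower in PHx24 than in PHx48, with a median of 0.30, while of 59 spindle genes none was higher and 41 were lower, with a median of -1.46. Ccnb1, the cyclin B of mitotic entry, averaged 2.38 ± 1.55 FPKM in PHx24 and 20.01 ± 6.65 FPKM in PHx48 livers (log2 difference -3.07 ± 0.53, adjusted p = 3.39e-04). Mcm6 averaged 23.6 ± 8.56 FPKM in PHx24 and 12.6 ± 2.66 FPKM in PHx48 livers (log2 difference 0.91 ± 0.34, adjusted p = 0.0789). Cdkn3, a phosphatase of CDKs that is high in mitosis, had one of the 5 largest deficits (log2 difference -3.83 ± 0.32, adjusted p = 1.57e-08). Of 24 acute-phase genes 14 were higher and none lower, among them Serpina3n (log2 difference 1.62 ± 0.22, adjusted p = 2.41e-05). In fatty acid and triglyceride synthesis 12 of 30 genes were lower in PHx24 than in PHx48 and none higher. Sc5d, an enzyme of the last steps of cholesterol synthesis, averaged 45.8 ± 9.30 FPKM in PHx24 and 139.9 ± 70.4 FPKM in PHx48 livers (log2 difference -1.601 ± 0.24, adjusted p = 7.19e-05). The comparisons with sham and with PHx48 share the PHx24 libraries, so their values are given side by side without a relation between them.

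**Figure D5:**
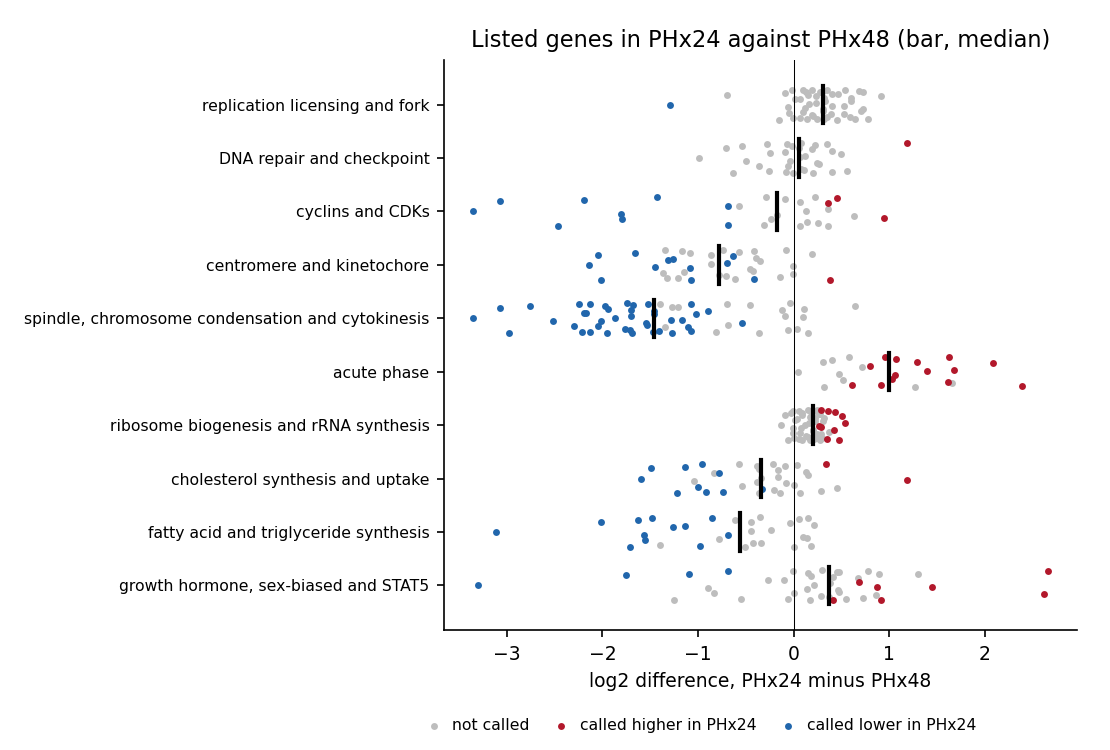
Log2 difference, PHx24 minus PHx48, of the tested members of 10 gene lists, 1 point per gene along the horizontal axis, with called genes in red (higher in PHx24) and blue (lower in PHx24) and a bar at the median. Spindle genes lie mostly left of 0 with a median of -1.46, replication genes around 0.30 and acute-phase genes around 0.997.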

How the data were processed

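Polyadenylated RNA of mouse liver was sequenced (TRIzol extraction and a NEBNext Ultra kit, per the labels' protocols). Per the submitters' processing notes, the tools were DESeq2 1.20.0, featureCounts 1.5.0-p3, HISAT2 2.0.5, fastp and CASAVA 1.8, with mm10 and GRCm38 as builds; no role or annotation release is stated. The authors deposited raw read counts per gene and FPKM of 54532 genes. The FPKM equal the deposited count divided by gene length and by a constant per library, as checked on the values. That constant differed from the library total, and how it was derived was not tested. All per-sample columns were used.

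Genes with at least 1 FPKM in at least 4 of the 27 libraries (12376) were tested on counts with edgeR 4.0.16 under R 4.3.3, in 1 fit of the 5 groups with TMM normalisation and the quasi-likelihood F test (biological coefficient of variation 0.266). A gene was called at a Benjamini-Hochberg adjusted p under 0.05. On simulated counts for PHx24 against sham, 78 of 100 genes changed 2-fold and 97 of 100 changed 4-fold were recovered, with 11 unchanged genes called. The simulation changed a far smaller share of genes than the 35.0% called on the real counts, so these rates need not carry over. Alternatives used limma 3.58.1 and DESeq2 1.42.0. TPM were computed from counts and length.

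The members of the gene lists, and the lists themselves, were chosen with earlier results of these data known. Genes were named from the 15 largest rises and falls without overlap and at least 5 FPKM in the higher group, the 10 largest gains and losses in FPKM, up to 3 members per list and direction by adjusted p and by fold, key members of each list, and the 5 largest differences from PHx48 in each direction. Promoter sequences are from RefSeq (GRCm38.p6). Depth was 14903757 to 18446372 counts per library.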

Additional observations from a re-analysis of the deposited data

Results flagged for a closer look

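In 25 of 268 sets of values (a named gene in the 7 PHx24 or the 5 sham livers), 1 library stood apart from the others of its group by a larger gap, as a share of the range on log2(FPKM + 1), than the critical value of the Dixon test. Chance gives such a value in about 1 of 20 sets. In PHx24 2 it was Inhbb (2.60 FPKM, against 0.502 to 1.06 FPKM), E2f1 (3.43 FPKM, against 7.59 to 11.9 FPKM), Foxm1 (0.781 FPKM, against 2.48 to 4.03 FPKM), Mcm6 (8.36 FPKM, against 19.04 to 34.4 FPKM), Rrm2 (5.21 FPKM, against 18.999 to 34.9 FPKM) and S100a8 (27.2 FPKM, against 1.42 to 3.93 FPKM). In PHx24 1 it was Lpin1 (4.54 FPKM, against 0.775 to 1.38 FPKM) and Mup-ps20 (0.156 FPKM, with the others at 0). In PHx24 3 it was Trp53 (10.9 FPKM, against 7.77 to 8.68 FPKM). In PHx24 5 it was C6 (28.5 FPKM, against 44.7 to 62.3 FPKM) and Cyp2b10 (43.0 FPKM, against 2.22 to 8.17 FPKM). In sham 2 it was Ccng2 (6.17 FPKM, against 3.45 to 4.08 FPKM), Krt8 (254 FPKM, against 145 to 167 FPKM), Apoa4 (126 FPKM, against 18.5 to 27.6 FPKM), Ccl5 (7.62 FPKM, against 0.874 to 1.61 FPKM), Akp3 (531 FPKM, against 0 to 1.05 FPKM) and S100g (880.3 FPKM, against 0 to 1.29 FPKM). In sham 1 it was Hgfac (55.5 FPKM, against 75.5 to 81.1 FPKM) and Cyp2f2 (381 FPKM, against 606 to 719 FPKM). In sham 3 it was Socs3 (22.03 FPKM, against 2.19 to 4.56 FPKM) and S100a8 (1.29 FPKM, against 0.341 to 0.549 FPKM). In sham 4 it was Cdk1 (1.08 FPKM, against 0.335 to 0.390 FPKM), Cdc20 (4.25 FPKM, against 0.728 to 1.14 FPKM) and Cenpe (0.170 FPKM, against 0.0531 to 0.0560 FPKM). In sham 5 it was Ppara (28.7 FPKM, against 13.5 to 14.8 FPKM).

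The effect of resection against sham at 24 h differed from that at 48 h in 37 of the 134 named genes by edgeR's test of PHx24 minus PHx48. That test called 11.6% of all genes tested, and some of the named genes were chosen for the size of this difference, which in part sets the count. The log2 difference was above 0 for Inhbb (1.18, adjusted p = 0.0184), Wnt9b (0.99, adjusted p = 0.00343), Ctps (0.85, adjusted p = 0.00257), Mthfd2 (0.53, adjusted p = 0.0425), Tubb5 (0.32, adjusted p = 0.0335), Nop56 (0.50, adjusted p = 0.0117), Sdf2l1 (1.22, adjusted p = 5.43e-04), Hpx (0.79, adjusted p = 0.0146), Apcs (1.62, adjusted p = 5.01e-05), Itih4 (1.03, adjusted p = 3.93e-04), Serpina3n (1.62, adjusted p = 2.41e-05), C3 (0.61, adjusted p = 0.00913), Thbd (1.07, adjusted p = 0.0361), Apoa4 (1.84, adjusted p = 0.00357), Por (0.94, adjusted p = 5.78e-04), Nnmt (1.17, adjusted p = 2.32e-04), Oat (0.81, adjusted p = 0.0147), Mup20 (0.69, adjusted p = 0.0415), A1bg (2.62, adjusted p = 0.00332), Ccl2 (2.26, adjusted p = 0.00842), Ccl7 (2.23, adjusted p = 0.0119), S100a8 (2.74, adjusted p = 0.00421), Col27a1 (0.67, adjusted p = 0.00756), Lcn2 (2.38, adjusted p = 5.21e-06) and Saa2 (2.09, adjusted p = 8.38e-04). It was below 0 for Cebpa (-0.59, adjusted p = 0.0238), Cdk1 (-1.43, adjusted p = 0.0345), Ube2c (-2.22, adjusted p = 0.00136), Cdc20 (-2.97, adjusted p = 2.11e-04), Cenpe (-2.04, adjusted p = 5.80e-04), Vars (-0.46, adjusted p = 9.44e-04), Wipi1 (-0.50, adjusted p = 0.0248), Itga5 (-0.67, adjusted p = 0.00206), Gm31583 (-0.95, adjusted p = 0.0335), Ccnb1 (-3.07, adjusted p = 3.39e-04), Cdkn3 (-3.83, adjusted p = 1.57e-08) and Sc5d (-1.60, adjusted p = 7.19e-05).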

How the results depend on the processing

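For PHx24 against sham, the test called 2366 genes higher (697 at least 2-fold) and 1960 lower (468 at least 2-fold), and for PHx24 against PHx48 669 were higher and 766 lower. Limma on log2(TPM + 1) gave 3797 higher, 896 lower and 241 at least 2-fold lower against sham, and 264 higher and 1691 lower against PHx48; its median over all genes was 0.19 against sham and -0.13 against PHx48. A filter at 5 FPKM, which tests fewer genes, gave 1544 higher, 343 at least 2-fold higher and 249 at least 2-fold lower. Limma on log2(FPKM + 1), whose pseudocount shrinks low genes, gave 359 at least 2-fold higher and 290 at least 2-fold lower. No filter gave 1032 at least 2-fold lower against sham and 440 higher against PHx48; the cause was not tested. Leaving out 1 library at a time gave 1987 to 2324 higher and 1734 to 1967 lower, 658 to 718 and 430 to 563 at 2-fold, and 519 to 662 higher and 615 to 781 lower against PHx48. The replicate block gave 1998 higher and 1889 lower, and 650 higher and 830 lower against PHx48. The labels share numbers without a stated pairing, so the main fit did not take the numbers as pairs. Deviations from the group means correlated at 0.112 to 0.655 in 4 same-numbered pairs, each PHx24 library's highest with any sham library. PHx24 4 and sham 4 correlated at 0.0257. Whether the numbers mark a shared batch was not tested. Without PHx24 1, sham 1, sham 2 and PHx48 3, a choice made after seeing the data, 1820 genes were higher and 1615 lower against sham. Of 134 named genes all but Socs3, Akp3 and S100g kept direction and call in each of the 22 alternatives in which they could be tested. Many were named for a low adjusted p, a large change or no overlap in these same libraries, which in part sets that count. Mcm6, not called against PHx48, was called there in 4 of 24 alternatives, DESeq2 and the replicate block among them. Genes near 1 FPKM rest on few reads: the 5 FPKM filter left 7 of 33 DNA repair, 14 of 37 centromere and 34 of 59 spindle genes.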
